A study of Mus musculus with 10 samples.

Results

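The genes described here encode the protein core of the vascular basement membrane: Col4a1, Col4a2, Col18a1, Lama4, Lamb1, Lamc1, Hspg2, Nid1, Nid2 and Sparc. They were chosen by name, and all probes that the platform annotation assigns to them were taken, which gave 22 probes for 10 genes among 46237 probes on the array. A detection filter kept 19 of the 22 probes, and all 10 genes were among the 16144 genes tested. The probe that represents each gene, the brightest one, was detected on all 10 arrays.

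The arrays were Illumina mouse beadchips hybridised with RNA from lung endothelial cells sorted by flow cytometry at postnatal day 6 from C57/Bl6 mice. Rspo3-iECKO mice (Rspo3fl/fl with Cdh5CreERT2, 3 arrays) were set against Rspo3-WT mice (Rspo3fl/fl without Cre, 2 arrays). Evi-iECKO mice (Evifl/fl with Cdh5CreERT2, 2 arrays) were set against Evi-WT mice (Evifl/fl without Cre, 3 arrays). Evi is another name of Wls. Both mouse lines carried floxed alleles in deleted and control animals alike, and the Cre, an inducible form driven by the promoter of the endothelial cadherin gene Cdh5, acts in endothelium wherever that promoter is active. Nothing in the labels tells single animals from pools, so the p-values reflect only how far these arrays scatter. The question was what losing either gene does to endothelial transcripts. Rspo3 encodes a secreted amplifier of Wnt signals and Wls a carrier that brings Wnt proteins to the cell surface.

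A basement membrane is a thin sheet of matrix on the outer face of the endothelium. Laminin trimers polymerise at the cell surface, a separate network of collagen IV gives the sheet its tensile strength, and nidogens and perlecan join the networks. In growing vessels endothelial cells and the pericytes around them both deposit these proteins. Laminins of the alpha chain encoded by Lama4 are typical of young endothelium, and those of the chain encoded by Lama5 are added as vessels mature.

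Col4a1 and Col4a2, the chains of the most widespread collagen IV trimer, lie head to head. RefSeq places Col4a1 on the minus strand at chr8:11198423-11312889 and Col4a2 on the plus strand at chr8:11312805-11449287 of GRCm38.p6. Their start windows, from 250 bases before to 50 bases after each start site, are shown because both genes are read outward from the same stretch of DNA. The annotated start sites of these windows lie 21 bases apart, and the windows share 78 bases, printed in capitals and read on opposite strands. The sequences are from RefSeq, 5′ to 3′ along each gene, at chr8:11312777-11313076 on the minus strand for Col4a1 and chr8:11312555-11312854 on the plus strand for Col4a2.
Col4a1: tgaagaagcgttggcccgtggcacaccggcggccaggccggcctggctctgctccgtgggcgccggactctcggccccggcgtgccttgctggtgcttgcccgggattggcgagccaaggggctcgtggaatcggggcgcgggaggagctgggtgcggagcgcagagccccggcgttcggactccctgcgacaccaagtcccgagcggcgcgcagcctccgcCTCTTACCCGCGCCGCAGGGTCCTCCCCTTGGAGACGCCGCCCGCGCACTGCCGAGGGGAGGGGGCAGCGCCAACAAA
Col4a2: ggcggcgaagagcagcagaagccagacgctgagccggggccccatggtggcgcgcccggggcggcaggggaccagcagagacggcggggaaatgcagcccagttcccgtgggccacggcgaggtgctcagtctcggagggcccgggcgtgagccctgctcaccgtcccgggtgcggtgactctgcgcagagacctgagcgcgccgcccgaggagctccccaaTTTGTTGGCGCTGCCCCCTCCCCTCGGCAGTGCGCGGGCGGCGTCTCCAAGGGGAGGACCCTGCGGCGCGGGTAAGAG

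A search of both strands for the GC box letters GGGCGG gave 1 match in the Col4a1 window and 3 in the Col4a2 window, 1 of them in the shared stretch. The letters CCAAT, with their reverse complement ATTGG, matched once in each window. In the Col4a1 window the match lay outside the shared stretch and in the Col4a2 window it ended on the first shared base. TATAAA matched in neither. Of 32851 mouse start windows of the same length, 35.7% held the GC box letters, 37.4% held CCAAT and 13.6% held TATAAA. Windows were found for 7 of the 10 genes. These matches describe the letters only.

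The targeted genes and the cell type were read first. Wls was lower in Evi-iECKO, at 4.85 and 4.68 on the log2 scale, against 5.68, 6.21 and 5.69 in Evi-WT, a log2 difference of -1.10 (SE 0.27, limma adjusted p = 0.357 over all genes). Neither Rspo3 probe was detected on any array of the Rspo3 line, so its deletion could not be checked. Of 12 pan-endothelial markers all were measured and 11 were detected on all 10 arrays. Markers of other lung cells were measured too, namely 11 of 12 for fibroblasts (all but Tcf21), 9 of 12 for pericytes and smooth muscle (not Pdgfrb, Kcnj8 or Higd1b), 9 of 9 for alveolar type 2 cells, 5 of 8 for epithelium (not Epcam, Krt18 or Krt19) and 8 of 10 for leukocytes. Detected on all 10 arrays were 3 fibroblast, 5 pericyte and smooth muscle, 3 alveolar type 2, 2 epithelial and 3 leukocyte markers. Between 46.5% and 51.3% of probes were detected per array, with median intensities of 89.6 to 110. The number of arrays limits the precision.

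Neither deletion moved a basement membrane gene past the threshold. No member passed at an adjusted p below 0.05 after Rspo3 deletion, after Evi/Wls deletion or in the mean of both deletion effects, where the percentage of all genes called was likewise 0%. At an unadjusted p below 0.05 no member was called for Rspo3, against 4.35% of all genes, and 1 of 10, Nid1, was called for Evi/Wls, against 7.99%. In the mean of both effects Nid1 was again the 1 member called, against 5.82% of all genes, as it was in the difference between the effects, against 6.06%. Of the 19 member probes, 2 were called at that level for Rspo3, 2 for Evi/Wls, 3 for the mean of both effects and 2 for the difference, against 4.48%, 7.75%, 6.00% and 5.98% of all probes. The arms did not overlap for 0 members in the Rspo3 comparison, against 22.6% of all genes, and for 2 in the Evi/Wls comparison, against 20.0%. The members' log2 differences had a median of 0.0067 for Rspo3, beside -0.0076 for all genes, and of -0.07 for Evi/Wls, beside 0.0090 for all genes. For the mean of both effects the medians were 0.02 for the members and -0.00091 for all genes.

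**Figure D1:**
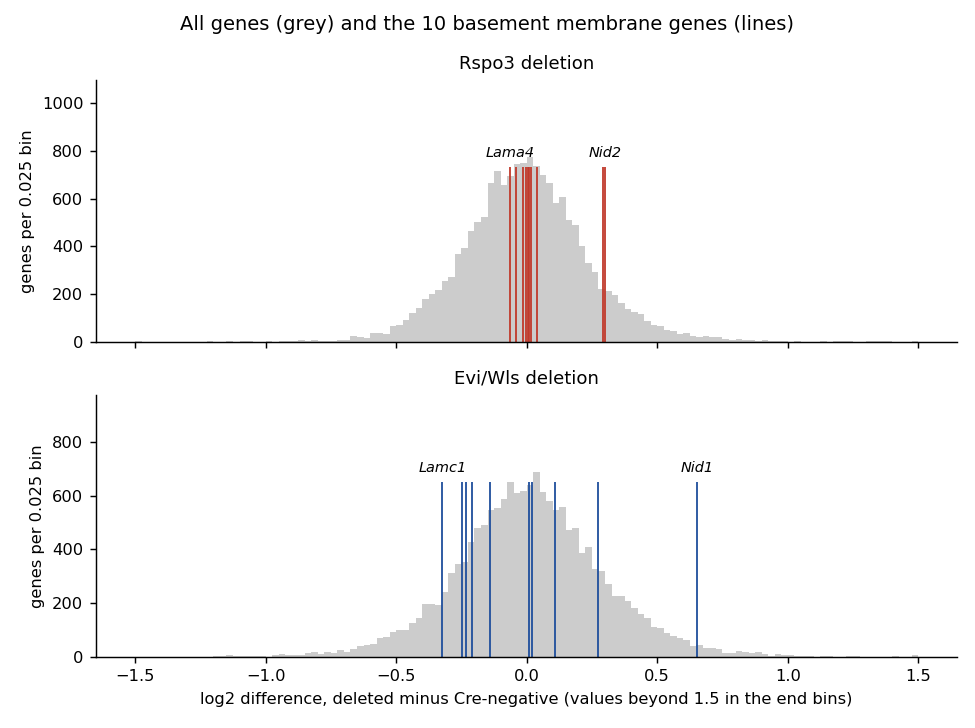
Log2 differences (deleted minus Cre-negative) of all 16144 genes as grey histograms, with a line for each of the 10 basement membrane genes, above for the Rspo3 deletion and below for the Evi/Wls deletion. For Rspo3 all but Lamb1 and Nid2 lie close to 0; for Evi/Wls the genes spread from -0.32 for Lamc1 to 0.65 for Nid1.

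Among the 10 genes, 6 had a positive log2 difference in the Rspo3 line, where 48.5% of all genes did, and 5 in the Evi/Wls line, where 51.4% did. The Rspo3 split depends on how arrays are scaled and on single arrays. With median scaling in place of quantile normalization, 9 of 10 members were positive, against 54.2% of all genes, and only Lama4 was negative. The members' median was then 0.19, while the median of all genes was 0.03. With the authors' normalized values 8 of 10 were positive, against 45.7% of all genes, with Col18a1 at 0.013 and Nid1 at 0.0025. Neither scaling brought a member past the adjusted threshold. Without Rspo3-WT replicate 2, 4 of 10 were positive, against 49.9% of all genes. Without Rspo3-iECKO replicate 1, 7 of 10 were, against 49.3%.

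After quantile normalization the collagen IV genes held nearly the same level in both arms of the Rspo3 line. Col4a1 read 10.59, 10.48 and 10.57 in Rspo3-iECKO, against 10.49 and 10.59 in Rspo3-WT. Deletion of Evi left it at 10.36 and 10.37 in Evi-iECKO, against 10.47, 10.38 and 10.22 in Evi-WT. The arms overlapped in both lines, and the log2 differences were 0.01 (SE 0.16) and 0.01 (SE 0.16), with adjusted p-values of 0.9995 and 0.993. The 95% intervals ran from 0.786-fold to 1.29-fold in each line. Before normalization the Col4a1 intensities were 2260, 1731 and 1936 in Rspo3-iECKO, against 1623 and 1625 in Rspo3-WT, with no overlap. The median intensities of these arrays were 110, 96.5 and 104, against 105 and 100. The flat reading in the Rspo3 line therefore depends on the normalization.

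Col4a2 read 9.43, 9.40 and 9.45 in Rspo3-iECKO, against 9.44 and 9.38 in Rspo3-WT. It read 9.04 and 8.85 in Evi-iECKO, against 9.34, 9.39 and 8.86 in Evi-WT. The Rspo3 line was flat after quantile normalization, with a log2 difference of 0.02 (SE 0.19). Before normalization the Col4a2 intensities were 1054, 872 and 944 in Rspo3-iECKO, against 841 and 748 in Rspo3-WT, with no overlap. In the Evi/Wls line 2 of the 3 control arrays lay above both deleted arrays and Evi-WT replicate 3 lay between them. The log2 difference there was -0.25 (SE 0.19, adjusted p = 0.817).

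**Figure D2:**
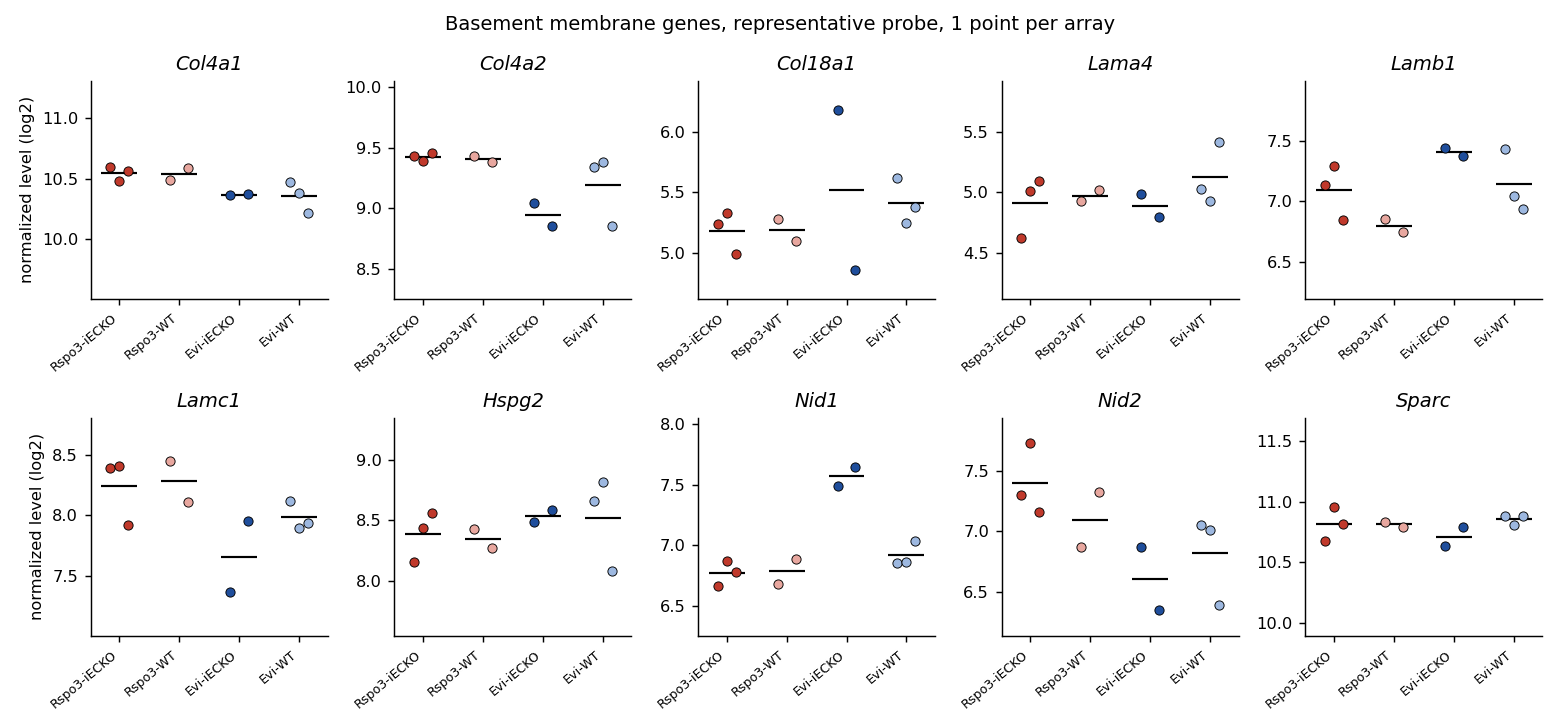
Normalized log2 level of each gene's representative probe on each of the 10 arrays, by group; points are arrays and bars are group means. Each panel spans 1.8 log2 units, and panels are not to be compared with each other in height because each is a different probe. Nid1 is the gene whose Evi-iECKO arrays lie clear above the Evi-WT arrays.

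Across the 10 arrays Col4a1 and Col4a2 had a Pearson's r of 0.815 (permutation p = 0.0022) and a Spearman's rho of 0.758 (permutation p = 0.0153), both two-sided. After Benjamini-Hochberg adjustment over the 45 pairs of members the p-values were 0.0747 and 0.229, and no pair of the 45 passed. Without the 2 arrays farthest from the median of Col4a1, r was 0.691. With each mouse line centred on its own mean, r was 0.59. Over the 5 Evi/Wls arrays r was 0.68 and over the 5 Rspo3 arrays 0.06, given without a test. The lines cannot be told apart from any batch between them.

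**Figure D3:**
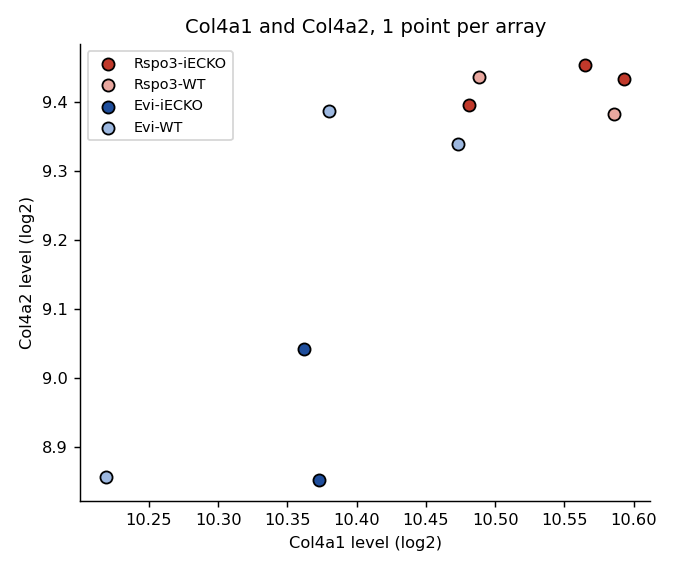
Log2 level of Col4a2 (vertical axis) against Col4a1 (horizontal axis) on each of the 10 arrays, coloured by group. The 5 arrays of the Rspo3 line sit together at the upper right, and the low Col4a2 arrays are both Evi-iECKO arrays and Evi-WT replicate 3.

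Nid2 was also positively correlated with both collagen IV genes over the 10 arrays, though no pair passed after adjustment. Its Pearson's r with Col4a2 was 0.812 (permutation p = 0.00332, adjusted 0.0747) and its Spearman's rho 0.612 (permutation p = 0.0666, adjusted 0.574). Without the 2 arrays farthest from the median of Col4a2, r was 0.39, and it was -0.62 over the 5 Rspo3 arrays and 0.94 over the 5 Evi/Wls arrays. With Col4a1, Nid2 had an r of 0.728 (permutation p = 0.0171, adjusted 0.192) and a rho of 0.77 (permutation p = 0.0126, adjusted 0.229). That r was 0.41 with each mouse line centred on its own mean. It was -0.08 over the 5 Rspo3 arrays and 0.69 over the 5 Evi/Wls arrays. Of the 45 pairwise correlations 22 were positive and 23 negative, with a median r of -0.02 and a range of -0.834 to 0.815. The lowest was that of Col4a2 with Nid1, at -0.77 over the 5 Rspo3 arrays and -0.71 over the 5 Evi/Wls arrays, with a permutation p = 0.0104 over all arrays and 0.156 after adjustment. Spearman's rho for that pair was -0.855 (permutation p = 0.00317, adjusted 0.143), and r was -0.973 without the 2 arrays farthest from the median of Col4a2. These values hold for the representative Nid1 probe, ILMN_2560756, only. Its r with the other Nid1 probe, ILMN_2814005, was -0.26, and the latter was not correlated with Col4a2 here. Correlated with the mean of all 10 centred members, single members ranged from -0.20 for Nid1 to 0.73 for Nid2. The non-member genes closest to that mean over the 10 arrays were Kcnrg, Pgd, Trap1, Kif16b and Cct8, at an r of 0.889 to 0.928; these values are a description, being the highest among all genes.

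The laminin genes gave small differences of unlike direction. Lama4, Lamb1 and Lamc1 encode the alpha, beta and gamma chains of a trimer made by endothelium. Lamb1 read 7.13, 7.29 and 6.84 in Rspo3-iECKO, against 6.85 and 6.74 in Rspo3-WT. It read 7.44 and 7.38 in Evi-iECKO, against 7.43, 7.05 and 6.93 in Evi-WT. In each line the deleted arrays averaged higher and 1 array overlapped. The log2 differences were 0.29 (SE 0.20) for Rspo3 and 0.27 (SE 0.20) for Evi/Wls. Their mean was 0.28 (SE 0.14, unadjusted p = 0.0708, adjusted p = 0.88), or 1.22-fold with a 95% interval of 0.981 to 1.51. Other processing brought this mean effect below an unadjusted 0.05 in limma, though not past the adjusted threshold. That held with background corrected without the detection p-values or not at all, with median scaling and with the authors' normalized values. It also held without Rspo3-iECKO replicate 3 or without Evi-WT replicate 1, and in no other fit. With median scaling Lamb1 was called at that level for Rspo3 too.

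Lamc1 is measured by a pair of probes detected on every array. The representative probe read 8.39, 8.41 and 7.92 in Rspo3-iECKO, against 8.44 and 8.11 in Rspo3-WT, and 7.37 and 7.95 in Evi-iECKO, against 8.11, 7.90 and 7.93 in Evi-WT. The other Lamc1 probe, ILMN_2774596, read 6.63, 6.66 and 6.59 in Rspo3-iECKO, against 6.27 and 6.24 in Rspo3-WT. On that probe the arms of the Rspo3 line did not overlap. Its levels were 6.15 and 5.87 in Evi-iECKO, against 6.61, 6.18 and 6.21 in Evi-WT. Both probes gave -0.32 for Evi/Wls (SE 0.23 and 0.19), whereas for Rspo3 they gave -0.04 (SE 0.23) and 0.37 (SE 0.19). For ILMN_2774596 the difference between the deletion effects was -0.69 (SE 0.26), with an unadjusted p = 0.021 and an adjusted p = 0.783 over all probes.

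Lama4 had 5 probes, of which 2 passed the filter, and the only one tied to its RefSeq transcript was detected on no array. The representative probe, annotated through a cDNA clone, read 4.62, 5.01 and 5.09 in Rspo3-iECKO, against 4.92 and 5.02 in Rspo3-WT. It read 4.98 and 4.79 in Evi-iECKO, against 5.02, 4.93 and 5.41 in Evi-WT. The arms overlapped in both lines, with log2 differences of -0.06 (SE 0.21) and -0.23 (SE 0.21). The representative probe was dim, with intensities before normalization of 97.0 to 124 beside array medians of 89.6 to 110. The other probe past the filter, ILMN_1251062, was detected on 5 arrays. It gave -0.34 for Rspo3 and 0.19 for Evi/Wls (SE 0.27 each), the latter of opposite sign to the representative probe.

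The nidogens bridge laminin and collagen IV, and Nid1 gave the largest difference of any member. On its representative probe, ILMN_2560756, Nid1 read 7.49 and 7.65 in Evi-iECKO, against 6.86, 6.86 and 7.04 in Evi-WT. It read 6.66, 6.87 and 6.77 in Rspo3-iECKO, against 6.68 and 6.89 in Rspo3-WT. Both Evi-iECKO arrays stood above all other arrays, and the arms of the Rspo3 line overlapped. Evi-iECKO arrays averaged 7.57 ± 0.11 (SD, n = 2), against 6.92 ± 0.10 (SD, n = 3) for Evi-WT, a 1.57-fold higher level (95% interval 1.22 to 2.04). The log2 difference was 0.65 (SE 0.17, adjusted p = 0.409), so Nid1 did not pass over all genes. Evi-iECKO arrays lay wholly above Evi-WT arrays for 10.8% of all genes. The Rspo3 difference was -0.02 (SE 0.17). The difference between both effects was 0.67 (SE 0.24, unadjusted p = 0.0165, adjusted p = 0.789).

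The other Nid1 probe gave a different picture. ILMN_2814005, the one tied to the RefSeq transcript, read 7.66, 6.97 and 7.23 in Rspo3-iECKO, against 6.48 and 6.82 in Rspo3-WT. It read 6.60 and 6.89 in Evi-iECKO, against 6.68, 6.60 and 6.23 in Evi-WT. On this probe the Rspo3 arms did not overlap and the Evi/Wls arms did. The Rspo3 log2 difference was 0.64 (SE 0.23, unadjusted p = 0.0172, adjusted p = 0.9998 over all probes) and the Evi/Wls difference 0.24 (SE 0.23, adjusted p = 0.862). The Pearson's r between the probes over the 10 arrays was -0.26. The representative probe is annotated through a cDNA clone with no Entrez identifier, and the position of the probes along the transcript was not used here. It was chosen as the brightest over all 10 arrays, so the high Evi-iECKO arrays had a part in that choice. Averaged over both effects, the probes gave 0.32 (SE 0.12) and 0.44 (SE 0.16), with adjusted p-values of 0.759 and 0.758 over all probes.

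**Figure D4:**
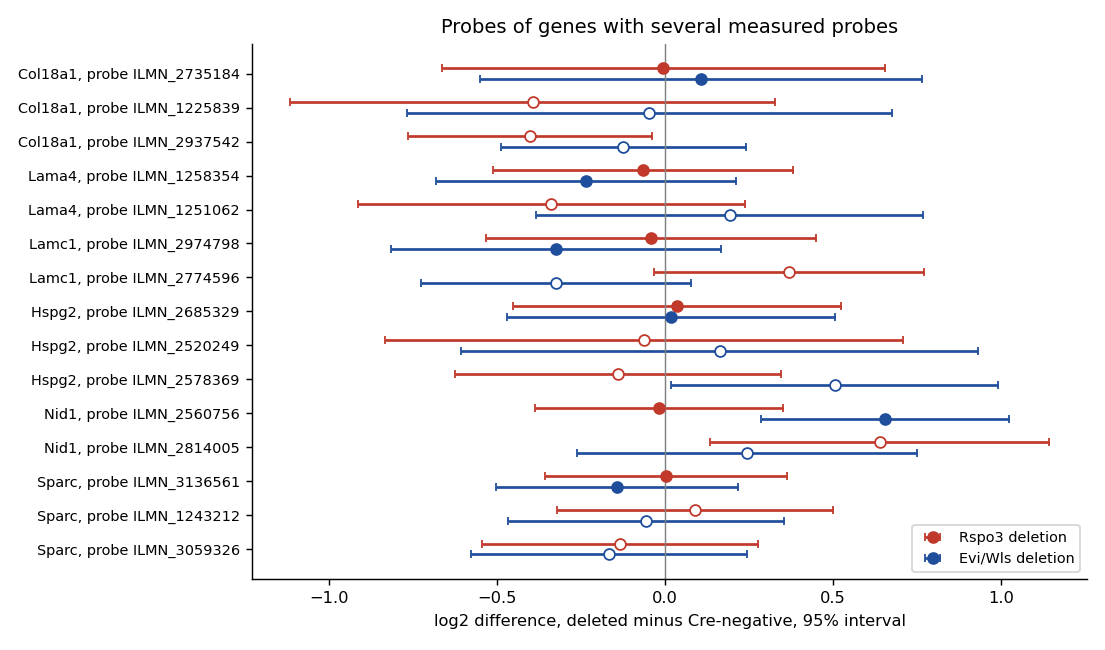
Log2 differences with 95% intervals for each measured probe of the 6 genes with several probes, the Rspo3 deletion in red and the Evi/Wls deletion in blue; filled points mark the probe that represents the gene. The Nid1 probes change places between the deletions, at -0.02 and 0.64 for Rspo3 and at 0.65 and 0.24 for Evi/Wls.

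Markers of other cells were read beside Nid1, since bulk arrays cannot tell fewer cells of a type from less RNA per cell. The mean centred log2 level of 8 measured leukocyte markers was 0.05 and 0.31 in Evi-iECKO, against -0.02, -0.08 and 0.09 in Evi-WT. That of 11 fibroblast markers was -0.09 and 0.18 in Evi-iECKO, against -0.07, -0.18 and -0.16 in Evi-WT, and that of 9 pericyte and smooth muscle markers was -0.26 and 0.12 in Evi-iECKO, against -0.19, -0.11 and -0.12 in Evi-WT. In the Rspo3 line the fibroblast markers stood at 0.14, 0.10 and 0.11 in Rspo3-iECKO, against -0.01 and -0.03 in Rspo3-WT, with no overlap, as for the RefSeq-tied Nid1 probe. Among them Dcn, the matrix proteoglycan decorin, differed by 0.82 (SE 0.19, adjusted p = 0.661) and was named after its value was seen. Dcn read 4.72, 5.02 and 5.07 in Rspo3-iECKO, against 4.11 and 4.12 in Rspo3-WT. In Rspo3-WT a Lama4 probe detected on no array read 4.11 and 4.14. Of the 11 fibroblast markers 8 were higher and 3 lower for Rspo3, while 48.5% of all genes were higher. For Evi/Wls 9 were higher and 2 lower, while 51.4% of all genes were higher. The medians of these markers were 0.17 for Rspo3 and 0.16 for Evi/Wls. Col3a1, also named after its value was seen, differed by 0.62 for Evi/Wls (SE 0.21, limma adjusted p = 0.470). It read 4.71 and 5.40 in Evi-iECKO, against 4.43, 4.36 and 4.51 in Evi-WT, with no overlap. Alveolar type 2 markers set the Evi-iECKO arrays apart from each other, at -0.95 and 1.77, against -0.83, -0.18 and -0.06 in Evi-WT. All 9 of them had a positive Evi/Wls difference. Pericyte and smooth muscle markers split 4 higher and 5 lower for Evi/Wls, and leukocyte markers 6 higher and 2 lower. The part of these cells in the Nid1 levels was not tested.

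Nid2 leaned the other way between lines. It read 7.30, 7.73 and 7.16 in Rspo3-iECKO, against 6.87 and 7.32 in Rspo3-WT. It read 6.87 and 6.35 in Evi-iECKO, against 7.05, 7.01 and 6.39 in Evi-WT. The arms overlapped in both lines, and the log2 differences of 0.30 (SE 0.26) and -0.21 (SE 0.26) were close to their standard errors.

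Hspg2 encodes perlecan, the heparan sulphate proteoglycan of the sheet. Its representative probe read 8.16, 8.43 and 8.56 in Rspo3-iECKO, against 8.42 and 8.27 in Rspo3-WT, and 8.49 and 8.59 in Evi-iECKO, against 8.66, 8.81 and 8.08 in Evi-WT. The log2 differences were 0.04 (SE 0.23) and 0.02 (SE 0.23), with overlapping arms in both lines. A dim further probe, ILMN_2578369, detected on 2 arrays in all, gave 0.51 (SE 0.22) for Evi/Wls from a single high array, Evi-iECKO replicate 1 at 5.25 against 4.37 in replicate 2.

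Col18a1 encodes collagen XVIII, whose carboxy-terminal fragment is endostatin, an inhibitor of angiogenesis. It read 5.24, 5.33 and 4.99 in Rspo3-iECKO, against 5.28 and 5.10 in Rspo3-WT, a log2 difference of -0.0039 (SE 0.30). In the Evi/Wls line the deleted arrays lay on either side of the controls, at 6.18 and 4.86 in Evi-iECKO, against 5.62, 5.24 and 5.38 in Evi-WT. That line gave 0.11 (SE 0.30) with both deleted arrays, -0.55 without Evi-iECKO replicate 1 and 0.77 without replicate 2. The Col18a1 mean in Evi-iECKO therefore rests on arrays that disagree. Another Col18a1 probe, ILMN_2937542, gave -0.40 for Rspo3 (SE 0.17, adjusted p = 0.9998). It read 4.29, 4.11 and 4.18 in Rspo3-iECKO, against 4.48 and 4.71 in Rspo3-WT, with no overlap. It lay near the detection limit, detected on 0 Rspo3-iECKO and 2 Rspo3-WT arrays. Before normalization its intensity was 107, 87.4 and 97.5 in Rspo3-iECKO, against 106 and 106 in Rspo3-WT, with overlap. The remaining Col18a1 probe, ILMN_1225839, detected on 5 arrays, gave -0.39 for Rspo3 (SE 0.33).

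Sparc, a collagen-binding glycoprotein of the matrix, gave small differences with either deletion. It read 10.68, 10.95 and 10.82 in Rspo3-iECKO, against 10.83 and 10.79 in Rspo3-WT, a log2 difference of 0.0041 (SE 0.17). It read 10.63 and 10.79 in Evi-iECKO, against 10.88, 10.80 and 10.88 in Evi-WT. Both Evi-iECKO arrays lay below all Evi-WT arrays, as they did for 9.2% of all genes, and the difference was -0.14 (SE 0.17, adjusted p = 0.897). The other 2 Sparc probes gave -0.06 and -0.16 for Evi/Wls. Before normalization the representative Sparc probe read 2415, 2366 and 2292 in Rspo3-iECKO, against 2119 and 1840 in Rspo3-WT, with no overlap.

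**Figure D5:**
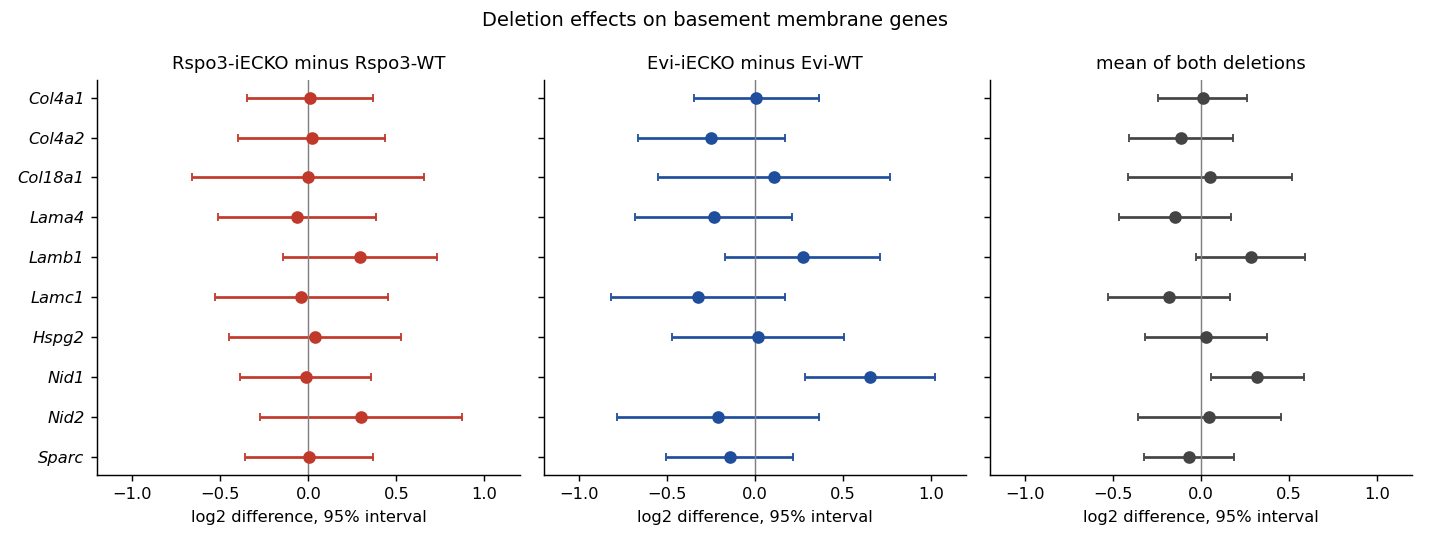
Log2 difference with its 95% interval for each basement membrane gene's representative probe, for the Rspo3 deletion (left), the Evi/Wls deletion (middle) and the mean of both (right). Only the Nid1 intervals in the middle and right panels leave out 0, before any adjustment over genes.

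In the control animals the level of each member could be compared between lines. Between Evi-WT and Rspo3-WT no member passed the adjusted threshold, against 0.0372% of all genes, and none had an unadjusted p below 0.05, against 8.81%. Col4a1 averaged 10.36 ± 0.13 (SD, n = 3) in Evi-WT and 10.54 ± 0.07 (SD, n = 2) in Rspo3-WT, with no overlap, and Lamb1 averaged 7.14 ± 0.26 in Evi-WT and 6.80 ± 0.08 in Rspo3-WT, again with no overlap. The arms did not overlap for 2 of 10 members, against 25.5% of all genes. The members' differences ranged from -0.30 to 0.34 on the representative probes. Other probes could differ in sign. Sparc gave 0.04 on its representative probe and 0.37 and -0.38 on the others (SE 0.19 each), and Lama4 gave 0.15 and -0.38. Of the 19 member probes 0 had an unadjusted p below 0.05. In other settings Col4a1 (no background correction), Lamc1 (median scaling) and Lamb1 (replicate number as a block) were called at that level in limma.

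Further basement membrane genes on the array were read in the same way. Of 34 listed, 27 were measured. None passed the adjusted threshold in either deletion. At an unadjusted p below 0.05, 1 was lower and none higher for Rspo3, against 2.01% and 2.35% of all genes, and 2 were higher and 2 lower for Evi/Wls, where 4.47% of all genes were higher and 3.52% lower. The list medians were -0.08 for Rspo3 and 0.01 for Evi/Wls. Lama5, the alpha chain of mature endothelial laminin, read 7.25 and 7.40 in Evi-iECKO, against 7.72, 7.82 and 7.77 in Evi-WT. The arms did not overlap, and the log2 difference was -0.44 (SE 0.16, unadjusted p = 0.0184, adjusted p = 0.523). In the Rspo3 line Lama5 read 7.54, 7.49 and 7.70 in Rspo3-iECKO, against 7.74 and 7.76 in Rspo3-WT, a difference of -0.18 (SE 0.16). Hmcn1, the matrix protein hemicentin, read -0.76 for Evi/Wls but -0.22 without Evi-iECKO replicate 1, and the perlecan-binding Vwa1 read 0.47. Lamc3, a laminin gamma chain named after its value was seen, read 0.55 for Evi/Wls, and Col4a6, a collagen IV chain of other tissues, -0.47 for Rspo3. Vwa1 and Col4a6 lay near background, with levels of 4.21 to 4.90 and 4.16 to 4.94 over the arrays. A Lama4 probe detected on no array read 4.05 to 4.34. Agrn, the basement membrane proteoglycan agrin, differed by 0.0055 (SE 0.16) and -0.03 (SE 0.16), and Lamb2, a laminin beta chain, by 0.11 and -0.40 (SE 0.27 each), for Rspo3 and Evi/Wls in that order.

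Genes that fold, modify and export collagen numbered 28, of which 21 were measured. For Evi/Wls 15 of the 21 were lower, against 48.6% of all genes, and 3 had an unadjusted p below 0.05, all lower, against 3.52%. They were Ppib, a prolyl isomerase of the collagen folding complex (-0.46, SE 0.18), Mia3, which helps load collagen for export (-0.57, SE 0.23, and -0.23 without Evi-iECKO replicate 1), and P4ha2, a prolyl hydroxylase subunit (-0.53, SE 0.22), with adjusted p-values of 0.552 to 0.571. Ppib read 6.98 and 7.23 in Evi-iECKO, against 7.55, 7.43 and 7.72 in Evi-WT. For Rspo3 the list split 10 higher and 11 lower, and the 1 gene with an unadjusted p below 0.05, against 4.35% of all genes, was Loxl4, a lysyl oxidase, at -0.55. Loxl4 lay near background too, with levels of 4.16 to 4.96 over the arrays. Serpinh1, the collagen chaperone, gave 0.05 and -0.26 (SE 0.23 each).

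Matrix receptors and proteases completed the lists. Of 24 receptor genes 20 were measured. None had an unadjusted p below 0.05 for Rspo3, against 4.35% of all genes, and 2 did for Evi/Wls, against 7.99%. They were the collagen-binding integrin gene Itga2 at -0.64 (SE 0.26) and the focal adhesion adaptor Lims1 at 0.65 (SE 0.29). Itga2 was -0.37 without Evi-iECKO replicate 1. Lims1 was 0.44 without Evi-WT replicate 2 and 0.99 without Evi-WT replicate 1. Itgb1, the beta chain shared by most matrix integrins, differed by -0.10 for Rspo3 and -0.14 for Evi/Wls (SE 0.26 each). Of 25 proteases and inhibitors 20 were measured, and for Rspo3 3 had an unadjusted p below 0.05, all higher, against 2.35% of all genes. They were Plat, tissue plasminogen activator (0.58, SE 0.25), Plaur, the urokinase receptor (0.71, SE 0.32, and 0.08 without Rspo3-WT replicate 1), and Adamts4, an aggrecanase (0.65, SE 0.30), each with an adjusted p of 0.9995. Plat read 7.13, 7.16 and 6.55 in Rspo3-iECKO, against 6.34 and 6.40 in Rspo3-WT, with no overlap. Adamts4 lay near background, at 4.96, 5.35 and 4.55 in Rspo3-iECKO, against 4.15 and 4.45 in Rspo3-WT. For Evi/Wls the 1 gene of that list with an unadjusted p below 0.05, against 7.99% of all genes, was Plau, urokinase, at 0.52 (SE 0.23).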

How the data were processed

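RNA of sorted lung endothelial cells was amplified by NuGEN SPIA and labelled with biotin for Illumina beadchips, per the labels' protocols. For every probe the authors deposited a mean intensity without normalization and a detection p-value, per the file headers. A second deposited table holds normalized intensity on a linear scale. Neither the normalization nor the origin of the p-values is given in the sources used.

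The function neqc of limma 3.58.1 (R 4.3.3, offset 16) estimated background from the detection p-values, quantile-normalized the arrays and returned log2 values. Figures used matplotlib 3.10.9. The filter, a detection p under 0.05 on 2 or more arrays, left 30017 of 46237 probes. The platform annotation gave 1 symbol for 35784 probes, several for 0 and none for 10453; symbols were updated through RefSeq names of GRCm38.p6 by Entrez identifier (28620) or accession (2637), otherwise kept (4527). The brightest probe, by its mean normalized value over all 10 arrays, deleted ones included, represented a gene. All 10 arrays entered 1 limma model with a mean for each of the 4 groups, over 16144 genes and separately over the kept probes, with Benjamini-Hochberg adjustment and a threshold of 0.05. Correlations were tested with 100000 permutations of all 10 arrays, without regard to line or group. Their p-values therefore do not separate differences between the lines from covariation within them. All 10 members were named; of the further lists, Lama5, Lamb2, Agrn, Serpinh1 and Itgb1, and up to 3 genes per list and deletion with the smallest unadjusted p below 0.05. The members and lists were chosen with earlier results of these data known. The fit was tested on simulated data. Alternatives covered background correction, normalization, filters, probe choice, weights, variance prior, replicate block, single lines, sex and leaving out arrays.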

Additional observations from a re-analysis of the deposited data

How the results depend on the processing

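No member passed the adjusted threshold under any of the 10 fits that left out an array or the 14 other settings. Nor did any member probe where probes were fitted. They were not fitted for the mean of all probes or the brightest probe with an Entrez identifier. The smallest adjusted p of a member was 0.202 with an array left out and 0.199 elsewhere, both for Nid1 in the Evi/Wls line. The Nid1 difference there kept its sign throughout, from 0.58 to 0.73 with arrays left out, was 0.39 without background correction, and was 0.24 with the brightest probe that has an Entrez identifier, an alternative chosen after seeing the data. With that probe Nid1 read 0.64 for Rspo3 and -0.40 for the difference of effects, and the members' median between the wild-type arms was -0.15 against 0.09; Lama4 then had no probe past the filter. The Nid1 difference of effects was no longer below an unadjusted 0.05 with that probe, with median scaling (0.40), with the mean of all probes (0.14), without Rspo3-WT replicate 2 (0.57) or without Evi-iECKO replicate 2 (0.59). Nor was its mean effect with a trended robust prior (0.32), without Rspo3-WT replicate 1 (0.27) or without Evi-iECKO replicate 2 (0.28). With median scaling the members' median was 0.19 for Rspo3, -0.29 for the difference and -0.14 for the wild-type arms, Col18a1, Lamc1 and Nid1 read 0.070, 0.18 and 0.19 for Rspo3, Col4a1 and Hspg2 read -0.040 and -0.040 for Evi/Wls, and Sparc read 0.014 for the mean effect. With the mean of all probes Lamc1, Hspg2, Nid1 and Sparc read 0.16, -0.054, 0.31 and -0.013 for Rspo3, Col18a1 read -0.021 for Evi/Wls and -0.14 for the mean effect, and the wild-type median was -0.11. With the authors' normalized values Col18a1 and Nid1 read 0.013 and 0.0025 for Rspo3. With array weights Col18a1 read 0.016 for Rspo3, Col4a1 and Hspg2 read -0.0030 and -0.013 for Evi/Wls, and Col4a1 read -0.00052 for the mean effect. With sex as a factor, chosen after seeing the data, Sparc read -0.00018 for Rspo3 and Col4a1 -0.0059 for Evi/Wls. The cause of these sign changes was not tested.

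With the replicate block Col18a1, Lamc1 and Sparc read 0.054, 0.052 and -0.0023 for Rspo3, and Col4a1 and Hspg2 read -0.020 and -0.045 for Evi/Wls. No member passed the adjusted threshold with this block. At an unadjusted p below 0.05 in limma, Nid2 was called beside Nid1 for the difference between the effects. Lamb1 was called between the wild-type arms. Deviations of same-numbered arrays from their group means had correlations of -0.02 and 0.00020 in the Rspo3 line and 0.13 and -0.12 in the Evi/Wls line. In the smaller group of each line the deviations mirror each other, so the correlations of a line are not independent. These values cannot tell whether the numbers pair the samples. No chip or position is named in the files, so no block for either was run.

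With arrays left out in turn, values that changed sign ranged, for Rspo3, from -0.040 to 0.058 (Col4a1), -0.0089 to 0.046 (Col4a2), -0.093 to 0.095 (Col18a1), -0.16 to 0.077 (Lama4), -0.21 to 0.13 (Lamc1), -0.052 to 0.15 (Hspg2), -0.12 to 0.086 (Nid1) and -0.064 to 0.073 (Sparc). For Evi/Wls they ranged from -0.060 to 0.067 (Col4a1), -0.55 to 0.77 (Col18a1), -0.20 to 0.17 (Hspg2) and -0.47 to 0.049 (Nid2), and for the mean effect from -0.025 to 0.038 (Col4a1), -0.28 to 0.38 (Col18a1), -0.080 to 0.10 (Hspg2) and -0.084 to 0.18 (Nid2). A group left with 1 array was assumed to vary like the others.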
